A study of Mus musculus with 11 samples.

Results

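Hox genes were followed in the trigeminal ganglion, which holds the sensory neurons of the face, in mouse embryos that carried 2, 1 or 0 working copies of the gene of Brn3a. The members were all probe sets whose only annotated gene symbol began with Hoxa, Hoxb, Hoxc or Hoxd and a number. They came to 49 of the 24899 probe sets on the 2 array types, 40 on U74Av2 and 9 on U74Bv2. These read 35 of the 13675 symbols that some probe set carried alone, of which 33 were protein-coding genes and 2 were antisense transcripts. The names of 12 of the 49 ended in _r, _f, _s, _i or _g, which marks a probe set designed under relaxed rules or one that may match related transcripts. Another 3 probe sets on U74Av2 and 1 on U74Bv2 carried a Hox symbol beside a second symbol and were left out.

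Hox genes encode homeodomain transcription factors and lie in 4 clusters, named a to d, on separate chromosomes. Genes of a lower paralog number lie nearer the 3′ end of a cluster and are as a rule expressed earlier and with a more rostral limit, in the hindbrain, while those of higher number mark the trunk and limbs. The rostral hindbrain and the neural crest of the first branchial arch, which contributes to the trigeminal ganglion, lie largely ahead of the limits of Hox expression. Hoxd1 is known in mice from nociceptive sensory neurons, where it takes part in the wiring of the pain circuit.

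Brn3a, the product of Pou4f1, is a POU-domain transcription factor of sensory neurons, and the mutant has defects in the growth of sensory axons at embryonic day 13.5, the age of all samples. The wild-type, heterozygote and knockout groups had 2 arrays each on U74Av2. On U74Bv2 the heterozygote and knockout groups had 2 arrays and the wild-type group had 1. Per the labels, tissue was kept until enough had been gathered to pool by genotype, and each array held RNA from about 10 to 12 ganglia. The sources used here do not give strain, allele or sex, nor do they state whether arrays with the same number shared a dissection or whether the same RNA went on both array types. The p-values therefore measure the spread between these arrays. On U74Av2 that spread includes a deviation shared by arrays of the same number, which the main fit does not model. In a pooled ganglion, fewer cells of a type and less RNA per cell cannot be told apart.

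The targeted gene, Pou4f1, had a signal of 3313.1 on the wild-type U74Bv2 array, 2196.0 and 3570.1 on the heterozygote arrays and 549.8 and 904.3 on the knockout arrays. Relative to all other arrays the knockout fell by 1.99 on the log2 scale (limma adjusted p = 0.00292). Nothing in the sources used here says whether its probes lie in the deleted stretch. Of 12 sensory neuron markers, 8 were on U74Av2 and 6 of those were bright enough to test. Isl1, a sensory neuron transcription factor, had signals between 2295.7 and 3503.9 on the 6 arrays, and the differences of all 6 tested markers are given with those of Hoxd1. Hindbrain and other central nervous system markers, a possible source of Hox RNA, summed to between 504.8 and 821.8 over the 8 markers on U74Av2. Their sums were 746.4 and 766.1 on the knockout arrays, inside that range, and 0 of the 2 that were tested were called. Over all probe sets tested on U74Av2, 0.872% were called against all other arrays. Some single markers, chosen after their values were seen, had knockout arrays apart from the others. Lhx1 was at 326.1 and 185.4 in the knockout and between 63.1 and 137.4 elsewhere (a difference of 0.96, limma adjusted p = 0.351). En1, below the filter, was at 148.1 and 115.5 in the knockout and between 30.0 and 101.1 elsewhere. Pax2, also below the filter, was at 36.5 and 24.3 in the knockout and between 50.6 and 233.2 elsewhere.

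The upstream sequence of Hoxd1 is shown because Hoxd1 carries the difference described next, and that of Hoxb1 because it is the other member of paralog group 1 that was bright enough to test. Both are the 250 bases before the gene's start in RefSeq's annotation of GRCm38.p6, on the + strand, at chr2:74762730-74762979 for Hoxd1 and chr11:96365508-96365757 for Hoxb1. Capitals mark TAAT, the core that homeodomains recognise, and CCAAT, the box bound by the factor NF-Y, on either strand, so that ATTA and ATTGG are their reverse complements.
Hoxd1 upstream: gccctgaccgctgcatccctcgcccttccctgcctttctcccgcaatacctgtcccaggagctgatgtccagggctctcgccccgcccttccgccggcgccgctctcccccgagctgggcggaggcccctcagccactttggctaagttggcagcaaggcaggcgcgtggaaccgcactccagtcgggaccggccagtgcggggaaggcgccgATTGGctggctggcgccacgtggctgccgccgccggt
Hoxb1 upstream: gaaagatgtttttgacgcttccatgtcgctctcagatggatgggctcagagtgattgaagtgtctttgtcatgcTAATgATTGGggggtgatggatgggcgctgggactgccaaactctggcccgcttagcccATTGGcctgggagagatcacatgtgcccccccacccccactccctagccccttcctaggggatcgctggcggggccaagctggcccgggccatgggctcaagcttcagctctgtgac
The Hoxd1 window held 0 TAAT and 1 CCAAT, in reverse at position -37 from the start, and was 71.6% G and C with 24 CpG dinucleotides. The Hoxb1 window held 1 TAAT and 2 CCAAT boxes and was 59.2% G and C with 7 CpG. Over the 32851 RefSeq promoters of the same length, 54.9% held TAAT and 33.8% held CCAAT, and the median promoter was 52.4% G and C with 6 CpG. Windows were found for 22 of the 35 Hox symbols, 24 windows in all, and 17 of the 24 held TAAT and 12 held CCAAT. The longer motif ATTAAT, which contains TAAT, was found in 4.39% of all promoters and in 1 of the 24 Hox windows, that of Hoxa6. A match is a description of letters, and no match says only that these letters are not in this window.

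Hoxd1 was lower in the knockout than in both other genotypes on each of its 2 probe sets. Both were read on the same 6 arrays and are not independent of each other. The probe set 98819_at had signals of 723.0 and 836.8 in wild-type ganglia, 712.7 and 764.6 in heterozygote ganglia, and 37.8 and 193.1 in knockout ganglia. The wild-type and heterozygote values overlapped, both knockout arrays lay far below them, and the knockout arrays differed from each other more than the 4 others did. The group means were 779.9 ± 80.5 (SD, n = 2) in the wild type, 738.6 ± 36.7 (SD, n = 2) in the heterozygote and 115.4 ± 109.8 (SD, n = 2) in the knockout.

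The second probe set, 98820_g_at, a relaxed design, gave 417.6 and 921.9 in wild-type, 258.6 and 653.0 in heterozygote, and 57.1 and 114.6 in knockout ganglia. Here too neither knockout array reached the lowest of the other 4. Within each genotype the array of number 2 was the higher one, as on 98819_at. The replicates were further apart than on 98819_at in the wild type and the heterozygote, and nearer in the knockout. On the log2 scale, number 1 minus number 2 was -1.06 in the wild type, -1.19 in the heterozygote and -0.62 in the knockout. The same differences on 98819_at were -0.20, -0.09 and -1.47.

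**Figure D1:**
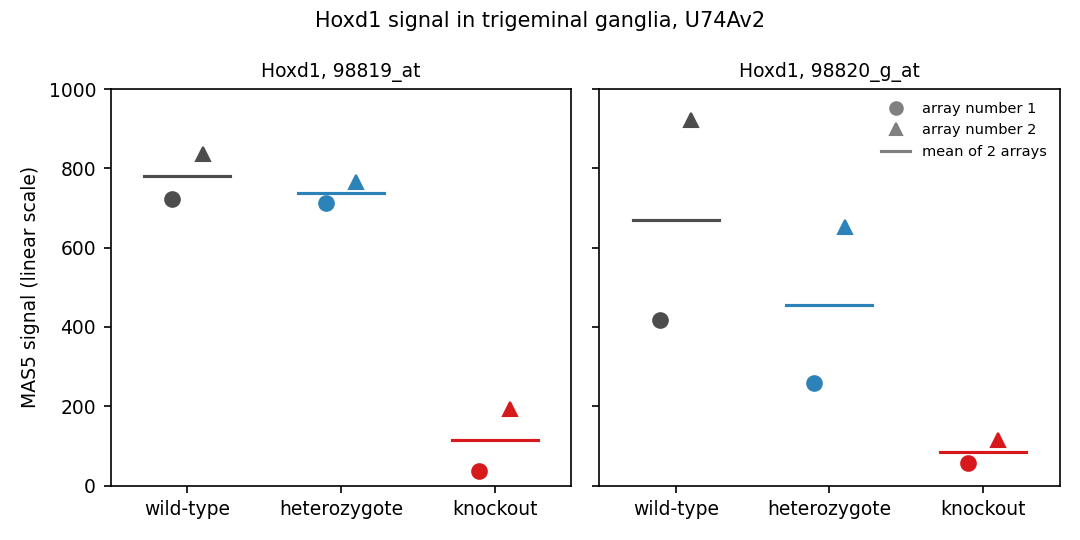
Deposited MAS5 signal (linear scale, from 0) of the 2 Hoxd1 probe sets on the 6 U74Av2 arrays, by genotype. Circles are arrays of number 1, triangles those of number 2, and lines are means of 2 arrays. The knockout arrays sit between 37.8 and 193.1 on 98819_at and between 57.1 and 114.6 on 98820_g_at, below all 4 other arrays in each case.

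Differences were tested with limma on log2 of the signal plus a pseudocount of 50.027, a scale that understates the change of dim probe sets. With the knockout arrays set against all 4 other arrays, Hoxd1 98819_at fell by 2.47 ± 0.36 (SE), which is 5.53-fold on this scale, with a 95% interval of -3.29 to -1.65 and an adjusted p of 0.0219. It was 1 of the 14 Hox probe sets tested on U74Av2 to pass an adjusted p under 0.05 in this comparison, and in all 0.872% of the 7453 probe sets tested did so, 0.577% as lower in the knockout. For 98820_g_at the difference was -2.08 ± 0.43 (SE), with a 95% interval of -3.07 to -1.08 and an adjusted p of 0.0994, which did not pass.

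The call on 98819_at did not hold with fewer control arrays. It was lost without any 1 of the 4 control arrays: adjusted p was 0.0733 and 0.0612 when wild-type array 1 or 2 was dropped, and 0.0645 and 0.0673 when heterozygote array 1 or 2 was dropped, with differences between -2.49 and -2.42. It was kept without knockout array 1, at -1.73, and without knockout array 2, at -3.20. The call was gained for 98820_g_at without heterozygote array 1, at -2.36 with adjusted p = 0.0489.

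Against the wild type alone, 98819_at differed by -2.50 ± 0.45 (SE, adjusted p = 0.147) and 98820_g_at by -2.34 ± 0.50 (SE, adjusted p = 0.254). Against the heterozygote alone the differences were -2.43 ± 0.45 (adjusted p = 0.150) and -1.81 ± 0.50 (adjusted p = 0.517). The sizes were thus close to those against all other arrays, while limma called 0 of the 14 tested Hox probe sets in either comparison, where it called 0.255% and 0.188% of all probe sets tested. At an unadjusted p under 0.05 there were 2 Hox probe sets in each, both of Hoxd1, out of 381 and 391 probe sets in all. Without knockout array 2, 98819_at passed in both, at -3.24 (adjusted p = 0.0350) against the wild type and -3.17 (adjusted p = 0.0467) against the heterozygote. Both comparisons share the knockout arrays and are not independent of each other. This fit has no term for array number. With the number as a block, limma called both Hoxd1 probe sets in both comparisons, beside 1.74% and 1.73% of all probe sets. Those values and their limit are given with the other alternatives.

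Taken by array number, the Hoxd1 differences ran the same way in both numbers. On 98819_at the knockout minus wild-type difference was -3.14 between the arrays of number 1 and -1.87 between those of number 2. On 98820_g_at it was -2.13 and -2.56. The larger difference was thus in number 1 on one probe set and in number 2 on the other.

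No dosage difference was called between the heterozygote and the wild type. Hoxd1 98819_at differed by -0.07 ± 0.45 (SE), with a 95% interval of -1.13 to 0.99, and 98820_g_at by -0.53 ± 0.50 (SE), with a 95% interval of -1.72 to 0.66. In this comparison limma called 0% of the probe sets tested, Hox or other, and 52 of all of them, none a Hox probe set, had an unadjusted p under 0.05. Without wild-type array 2 the difference on 98819_at was 0.03, and without heterozygote array 1 that on 98820_g_at was 0.06. Both intervals span falls of more than 1 on the log2 scale, so equal levels in the 2 genotypes are not shown.

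Some markers of sensory and autonomic neurons also had knockout signals below or above all other arrays, and others overlapped them. Avil, an actin-binding protein of sensory neurons, had signals of 242.2 and 195.4 in the knockout and between 1407.3 and 2022.3 on the other arrays, and fell by 2.68 (adjusted p = 0.000928). It was the 1 of the 6 tested sensory neuron markers on U74Av2 that was called, beside 0.872% of all probe sets tested, 0.577% as lower. Of the others, Prph, Nefl and Isl1 differed by -0.92, -0.55 and -0.21, and Tlx3 and Nefm by 0.62 and 0.12, none of them called. Ntrk2 on U74Bv2 differed by 0.72 (adjusted p = 0.0570), which did not pass. The 8 sensory neuron markers on U74Av2 summed to 19106.5 and 20195.3 on the knockout arrays and to between 21923.0 and 27233.2 on the others, sums in which Prph and Nefm have the highest signals. Th, the enzyme that starts catecholamine synthesis and a marker of autonomic and some sensory neurons, was at 1390.6 and 1563.1 in the knockout and between 3077.7 and 4126.0 elsewhere. It fell by 1.20 (adjusted p = 0.0219), a call that was lost when any 1 of the 6 arrays was left out, with adjusted p between 0.0522 and 0.179. The 3 epibranchial and autonomic markers on U74Av2, nearly all of whose signal was Th, summed to 1478.4 and 1614.0 in the knockout and to between 3113.6 and 4216.0 elsewhere. Phox2a, below the filter, went the other way, at 75.5 and 42.6 in the knockout and between 22.3 and 37.4 elsewhere. Hand2, also below the filter there, overlapped, and on U74Bv2 it differed by 0.08 and was not called. No marker's signal was 0. On U74Av2, 0 of the tested markers of Schwann and satellite glia (3), cranial mesenchyme (6), skeletal muscle (4) and red blood cells (2) were called. Over all probe sets tested, 0.872% were called. Their median differences from all other arrays were 0.25, 0.33, -0.02 and 0.28 in that order, beside 0.02 over all probe sets. The part of these cells in the Hoxd1 difference was not tested.

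Of the 40 Hox probe sets on U74Av2, 14 passed the filter on dim probe sets, which required a mean level above a signal of about 124.47. Over the whole array without controls, 7453 of 12422 probe sets passed, since the filter drops the lowest 40%. The 26 other Hox probe sets had signals between 2.0 and 321.4 on single arrays and were not tested in the main comparison. Since detection calls were not used, a low signal is not called absent. By cluster, 4 of 16 probe sets passed in cluster a, 5 of 10 in cluster b, 2 of 5 in cluster c and 3 of 9 in cluster d. By paralog group, 5 of 12 passed in groups 1 to 4, 8 of 14 in groups 5 to 8 and 1 of 14 in groups 9 to 13, the last being the antisense transcript Hoxa11os. Of the 11 relaxed designs 5 passed, and of the 29 others 9. Whether a probe set passes depends on its probes as well as on its gene's level, so these counts do not rank the genes.

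**Figure D2:**
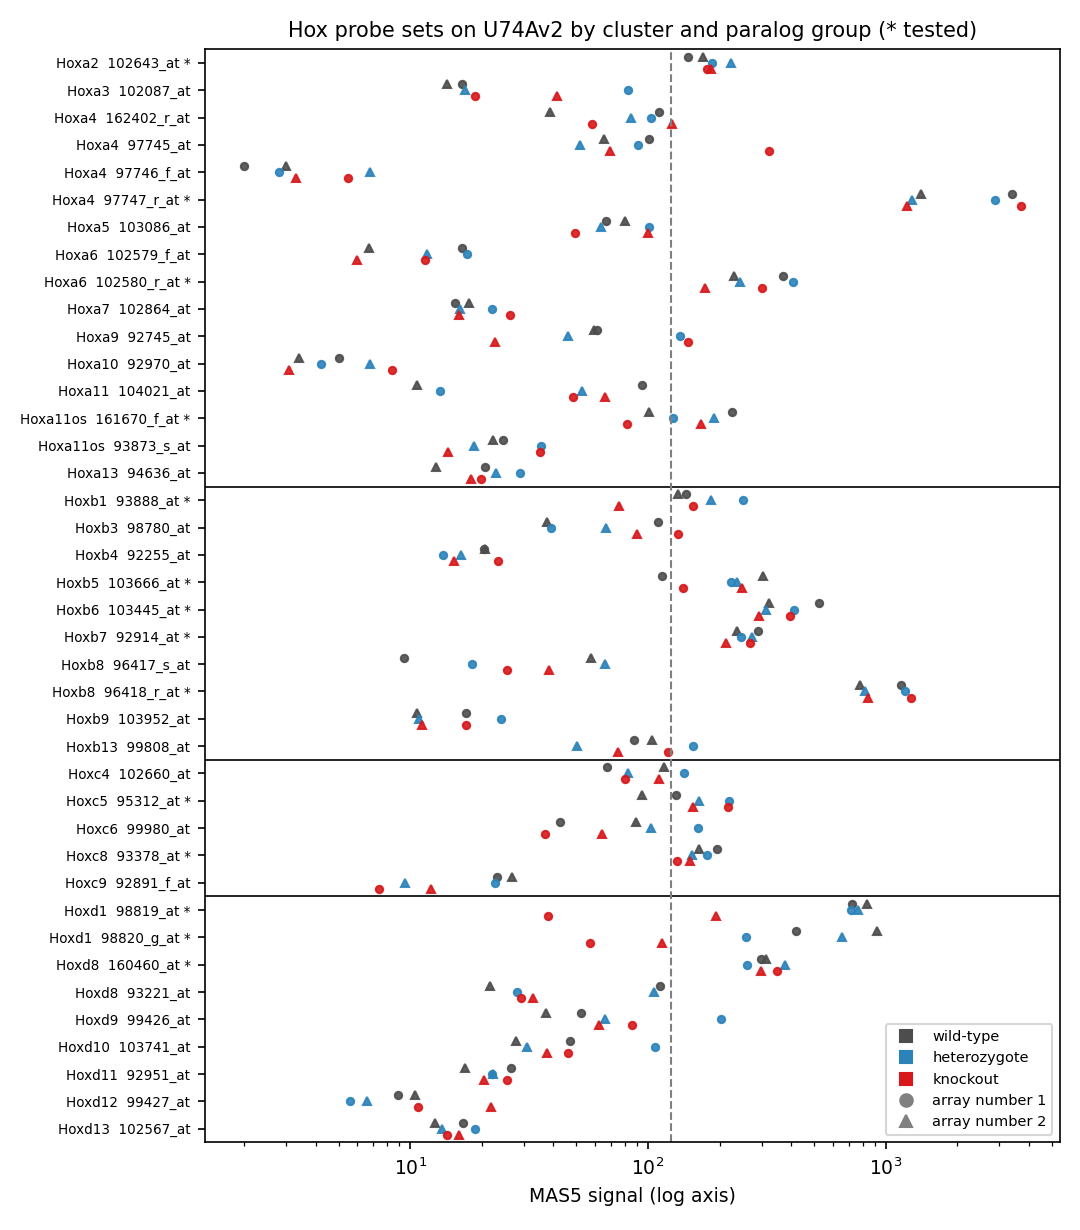
Deposited MAS5 signal (log axis) of all 40 Hox probe sets on the 6 U74Av2 arrays, ordered by cluster and paralog group, with array number 1 as circles and number 2 as triangles. The dashed line is the filter level of 124.47 and an asterisk marks the 14 tested. The 2 Hoxd1 probe sets are those with both knockout arrays far to the left of the other 4.

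Apart from Hoxd1, 12 Hox probe sets of 12 genes were tested on U74Av2, and none passed in any comparison or had an unadjusted p under 0.05. Their knockout minus wild-type differences lay between -0.29 and 0.53 with a median of -0.07, and the median over all 7453 probe sets was 0.02. Against all other arrays they lay between -0.48 and 0.25 with a median of -0.11. In that comparison the 95% intervals of these 12 reached no lower than -1.17, for Hoxb1, and no higher than 1.24, for Hoxa4. Against the wild type they reached -1.54 and 1.48, both for Hoxa4, and against the heterozygote -1.50, for Hoxb1, and 1.66, for Hoxa4.

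Hoxc5, which acts in motor neurons of the cervical cord, had on 95312_at the largest difference from the wild type after Hoxd1 among the tested probe sets. Its signals were 131.4 and 94.1 in the wild type, 219.1 and 164.5 in the heterozygote and 217.1 and 154.6 in the knockout. The wild-type arrays were the 2 lowest and the other genotypes overlapped. The knockout minus wild-type difference was 0.53 ± 0.30 (SE, adjusted p = 1), and the heterozygote differed from the wild type by 0.57 ± 0.30 (adjusted p = 1). On U74Bv2, Hoxc5 was also read by 163886_at and 164559_at, both below the filter. With no filter their knockout arrays differed from the lone wild-type array by -0.02 and -0.03.

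Hoxa6, a patterning gene of the neck and thorax, was read by the relaxed probe set 102580_r_at at 370.4 and 229.4 in the wild type, 405.5 and 244.5 in the heterozygote and 300.6 and 173.6 in the knockout. The arrays of number 1 were higher in every genotype and the genotypes overlapped. Its knockout minus wild-type difference of -0.29 ± 0.36 (SE, adjusted p = 1) was smaller than the difference between numbers. Hoxa11os, a transcript antisense to Hoxa11, gave 224.6 and 100.5, 127.3 and 188.6, and 81.6 and 166.3 in the same order on the relaxed probe set 161670_f_at, and differed by -0.27 ± 0.41 (SE, adjusted p = 1). Its 3 genotypes overlapped.

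The brightest readings beside Hoxd1 also came from relaxed designs. Hoxa4 97747_r_at had signals of 3397.3 and 1401.9 in the wild type, 2862.8 and 1286.4 in the heterozygote and 3695.0 and 1228.8 in the knockout. The arrays of number 1 stood clear of those of number 2 and the genotypes overlapped, with a knockout minus wild-type difference of -0.03 ± 0.64 (SE, adjusted p = 1). Hoxb8 96418_r_at had 1160.6 and 780.5, 1200.6 and 818.3, and 1276.0 and 841.3 in the same order, again with number 1 above number 2 throughout. Its difference was 0.12 ± 0.32 (SE, adjusted p = 1). Hoxa4 is a gene of the caudal hindbrain and neck, and Hoxb8 is known from the spinal cord and from blood and microglial cells.

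The other 7 tested members on U74Av2 were Hoxa2, Hoxb1, Hoxb5, Hoxb6, Hoxb7, Hoxc8 and Hoxd8, with 1 probe set each and signals between 75.8 and 522.0. Of these, Hoxb1 and Hoxc8 are described because of their values. Hoxb1, which sets the identity of the hindbrain segment that makes facial motor neurons, had signals of 144.7 and 134.0 in the wild type, 250.6 and 183.1 in the heterozygote and 155.1 and 75.8 in the knockout. The heterozygote arrays were the 2 highest, and the wild-type values lay between those of the knockout. The knockout minus heterozygote difference of -0.72 ± 0.33 (SE) had an adjusted p of 1 and an unadjusted p of 0.0660.

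Hoxc8, which acts in brachial motor neurons, had signals of 194.7 and 163.9 in the wild type, 177.2 and 153.7 in the heterozygote and 132.9 and 150.1 in the knockout. Both knockout arrays were the lowest, but the nearest control array was only slightly above them, and the difference from all other arrays was -0.21 ± 0.20 (SE, adjusted p = 0.991). The knockout arrays lay below all others for 3 of the 14 tested Hox probe sets, those of Hoxc8 and Hoxd1, and for 7.66% of all tested probe sets. They lay above all others for 0 of the 14 and for 8.53% of all.

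**Figure D3:**
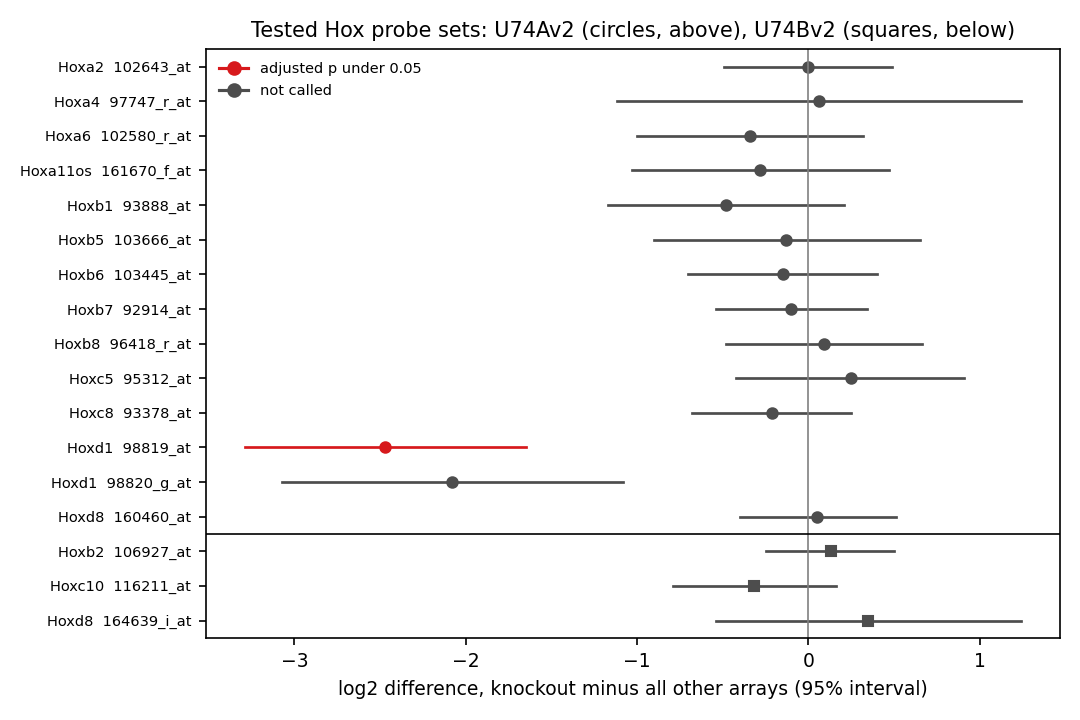
Log2 difference, knockout minus all other arrays, of the 14 Hox probe sets tested on U74Av2 (circles) and the 3 tested on U74Bv2 (squares), with 95% intervals from limma. Red marks an adjusted p under 0.05. Hoxd1 98819_at, at -2.47, is the 1 probe set in red, and the intervals of the 12 other probe sets on U74Av2 and the 3 on U74Bv2 that read genes other than Hoxd1 include 0.

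Below the filter, no Hox probe set stood apart in the test. When all 40 were tested with the 12422 probe sets of the array and no filter, 98819_at was again the 1 Hox probe set called against all other arrays, at an adjusted p of 0.0394, where 0.491% of all were called. The 38 probe sets of other genes differed by between -0.52 and 0.74, with a median of -0.02 beside 0.02 over all probe sets. Hoxc6, a gene of the thoracic and brachial axis, was the 1 gene of these 38 with an unadjusted limma p under 0.05 in any of the comparisons. It differed by -0.85 between the knockout and the heterozygote, with an adjusted p of 0.814. Its signals were 42.6 and 88.8 in the wild type, 162.0 and 103.1 in the heterozygote and 36.9 and 64.3 in the knockout, so the knockout overlapped the wild type. Hoxd12, a gene of the limbs and the caudal trunk, was the 1 member of the 40 with both knockout arrays above the rest, at 10.8 and 21.9 against 5.6 to 10.5, which was the case for 8.66% of all probe sets. Both members were chosen for mention after their values were seen.

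Several genes had probe sets that passed and others that did not. Hoxa4 passed on 97747_r_at, while 162402_r_at, 97745_at and 97746_f_at did not, and the last of these had signals between 2.0 and 6.8. On 97745_at, knockout array 1 had 321.4 and the other 5 arrays between 52.0 and 101.4. Hoxa6, Hoxb8, Hoxa11os and Hoxd8 each had 1 probe set that passed and 1 that did not on U74Av2. Hoxb8 96417_s_at, the dim one, had its arrays of number 2 above those of number 1 in every genotype, opposite to 96418_r_at. Of the 10 genes with more than 1 probe set on the 2 array types, Hoxd1 was therefore the 1 on U74Av2 for which both probe sets passed the filter.

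On U74Bv2, 3 of 9 Hox probe sets passed the filter, set at a signal of about 172.21, beside 7446 of 12411 probe sets in all. None of the 3 was called. Hoxb2, a hindbrain gene, had signals of 480.8 on the wild-type array, 525.4 and 473.4 on the heterozygote arrays and 576.7 and 509.7 on the knockout arrays. Both knockout arrays were above the wild-type array and the heterozygote arrays overlapped both genotypes. The knockout minus wild-type difference was 0.16 ± 0.24 (SE, adjusted p = 0.903). Hoxc10, a gene of the lumbar cord, had 377.4, then 418.6 and 417.6, then 383.1 and 257.1 in the same order. Knockout array 2 was the lowest and knockout array 1 lay among the others, with a difference of -0.23 ± 0.30 (SE, adjusted p = 0.878) from the wild type and -0.32 ± 0.21 (SE, adjusted p = 0.642) from all other arrays.

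Hoxd8 had 211.9 on the wild-type array, 285.6 and 75.6 on the heterozygote arrays and 212.6 and 256.3 on the knockout arrays on the relaxed probe set 164639_i_at. The heterozygote arrays spanned the rest, and the difference from the wild type was 0.11 ± 0.54 (SE, adjusted p = 0.974). On U74Av2, Hoxd8 160460_at gave 0.07 ± 0.25 (SE, adjusted p = 1). On U74Bv2 limma called 1.4% of the 7446 probe sets tested in knockout minus wild-type, 1.71% in knockout minus heterozygote, 0% in heterozygote minus wild-type and 2.93% in knockout minus all other arrays. Of the 3 Hox probe sets, 0 were called and 0 had an unadjusted p under 0.05 in each of these comparisons. The 6 members below the filter had signals between 3.6 and 153.1.

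Hox proteins bind DNA with partners of the TALE homeodomain class, and Meis2, one of these, fell in the knockout. Its signals were 378.7 and 414.9 in the wild type, 433.7 and 374.1 in the heterozygote and 59.6 and 112.9 in the knockout. The control genotypes overlapped and both knockout arrays lay far below them. Against all other arrays it fell by 1.75 ± 0.22 (SE, adjusted p = 0.0122), and against the wild type alone it differed by -1.74 ± 0.28 (SE, adjusted p = 0.111). Without knockout array 1 the difference from all other arrays was -1.46 with adjusted p = 0.0880.

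Of the 9 genes on the TALE list, 6 were on U74Av2, each read by its brightest probe set, and 5 of these were tested. In the knockout against all other arrays 1 of the 5, Meis2, was called, as lower, beside 0.872% of all probe sets tested, 0.577% as lower. Meis1 was below the filter, with 111.3 and 139.0 in the wild type, 73.0 and 108.2 in the heterozygote and 6.5 and 59.4 in the knockout. Both knockout arrays were the lowest on this relaxed probe set, 98790_s_at. Pbx3, another partner, had 1150.3 and 1254.0, 1361.7 and 1197.1, and 2126.0 and 2565.2 in the same order, with both knockout arrays above the rest. Its difference from all other arrays was 0.89 ± 0.16 (SE, adjusted p = 0.0537) on 93615_at, and its other probe sets gave 0.70 and 0.60. Pbx2, Meis3 and Pknox1 were not called, with differences of 0.31, 0.27 and -0.16. On U74Bv2, 2 of 3 TALE genes were tested, Pknox1 and Pknox2, and 0 were called. There, 2.93% of all probe sets tested were called against all other arrays.

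**Figure D4:**
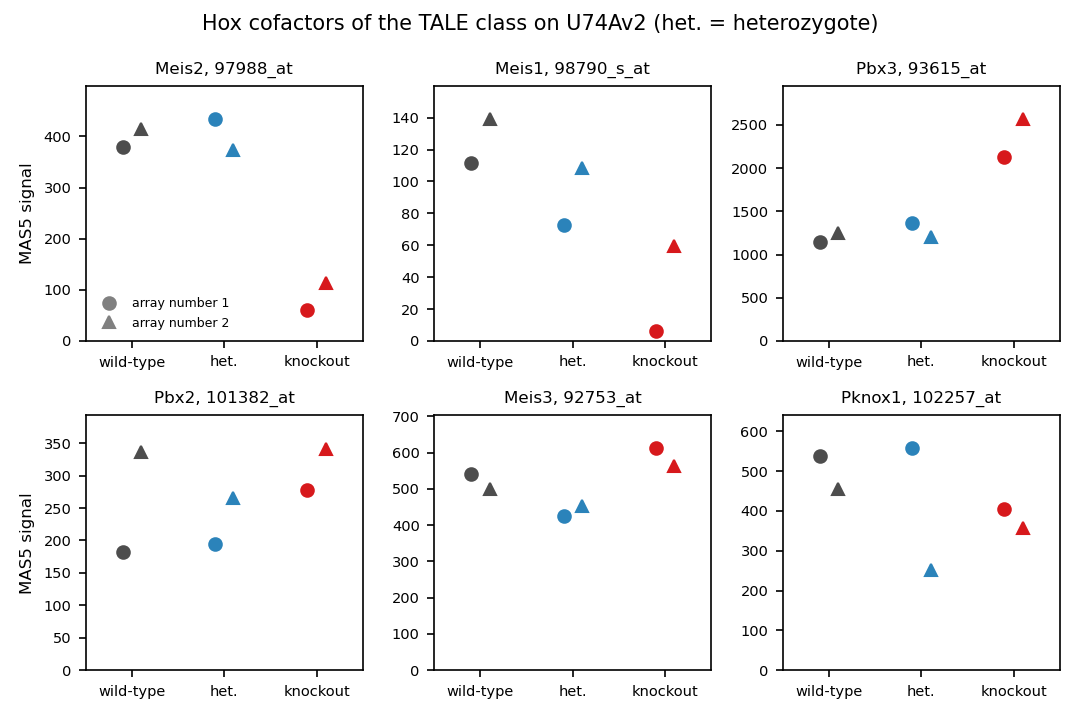
Deposited MAS5 signal (linear scale, from 0, with a separate axis for each gene) of the 6 TALE partners on the 6 U74Av2 arrays, circles for number 1 and triangles for number 2. Both knockout arrays lie below all others for Meis2 (59.6 and 112.9) and Meis1 (6.5 and 59.4), and above all others for Pbx3 (2126.0 and 2565.2).

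Genes of the pathways that switch Hox genes on or hold them silent did not pass an adjusted p under 0.05 in this fit, though some had knockout arrays apart from all others. Over all probe sets tested against all other arrays, 0.872% were called on U74Av2 and 2.93% on U74Bv2. Counts of 0 in lists this short therefore do not show unchanged levels. Retinoic acid is the main inducer of the 3′ Hox genes, and of 12 genes of its pathway on U74Av2, 5 were tested and 0 were called in any of the 4 comparisons. Stra6, a membrane carrier that takes up retinol, came nearest, with 619.6 and 562.3 in the wild type, 532.3 and 526.5 in the heterozygote and 203.1 and 291.5 in the knockout. Both knockout arrays were the lowest, and the difference from all other arrays was -1.05 ± 0.19 (SE, adjusted p = 0.0531), or -1.07 with adjusted p = 0.0419 after quantile normalization. The 3 brightest genes of this list, the receptor Rxrb and the binding proteins Crabp2 and Crabp1, differed by -0.18, -0.59 and -0.16. Rxrg, a receptor below the filter that was chosen after its values were seen, was at 218.5 and 148.1 in the knockout and between 34.9 and 56.3 elsewhere. On U74Bv2, 4 of 4 genes were tested, among them the receptors Rara (0.16) and Rarb (0.08), and 0 were called.

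Of the transcription factors that act upstream of Hox genes, 2 of the 6 on U74Av2 were tested, Ctcf (-0.08) and Egr2 (0.44), and 0 were called. The shares called over all probe sets against all other arrays were 0.872% on U74Av2 and 2.93% on U74Bv2. Of the Polycomb group, which keeps Hox genes silent, 12 of 14 were tested on U74Av2 and 3 of 6 on U74Bv2, with 0 called and a median of 0.07 on U74Av2 beside 0.02 over all probe sets. Ezh2, its histone methyltransferase, had 540.0 and 555.4, 713.8 and 500.3, and 1410.0 and 1031.3 in wild-type, heterozygote and knockout ganglia, so that both knockout arrays were the highest. Its difference was 1.01 ± 0.20 (SE, adjusted p = 0.0862). The brightest Polycomb genes on U74Av2, Jarid2 and Phc2, differed by 0.04 and 0.10. Of the Trithorax group, which keeps Hox genes active, 5 of 5 were tested on each array type and 0 were called. On U74Bv2 the median difference of the 5 from all other arrays was 0.3, beside 0.02 over all probe sets, with 5 higher and 0 lower. The brightest on U74Av2, Wdr5, Kmt2a and Kdm6a, differed by 0.23, 0.03 and 0.17. Men1, the menin gene, chosen after its values were seen, was at 120.4 and 129.1 in the knockout and between 233.7 and 412.6 elsewhere, and differed by -1.06 ± 0.26 (SE, adjusted p = 0.185).

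The genes that lie beside Hoxd1's cluster did not share its difference at a size that passed. Mtx2, a mitochondrial protein gene on the 3′ side of the cluster, had signals of 1105.7 and 1888.8 in the wild type, 1217.4 and 1515.1 in the heterozygote and 788.4 and 1250.7 in the knockout. The genotypes overlapped and the difference from all other arrays was -0.48 ± 0.26 (SE, adjusted p = 0.828). Evx2, on the 5′ side, was below the filter, with 78.5 and 49.9, 97.2 and 53.2, and 110.8 and 60.9 in the same order. Lnpk, further on the 5′ side, was read by 2 probe sets that passed on U74Bv2, with differences of 0.05 (116439_at) and 0.49 (116440_at), neither called. Hoxd8, the other gene of the cluster that was tested on U74Av2, differed from all other arrays by 0.05 ± 0.20 (SE, adjusted p = 1) with a 95% interval of -0.40 to 0.51, an interval that does not reach that of Hoxd1. Beside the other clusters, Skap2 differed by -1.04 ± 0.29 (SE, adjusted p = 0.288), and Calcoco1 on U74Bv2 by 0.21, not called. Evx1, below the filter, was at 159.3 and 123.6 in the knockout and between 19.6 and 93.4 elsewhere. Skap1, below the filter on U74Bv2, overlapped.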

How the data were processed

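The authors deposited a microarray intensity for each probe set, on a linear scale and made with MAS5 according to the submitters' processing notes. Its version, its scaling target and the detection calls are not in the sources used here. Trimmed means (2%) were 500.26 to 500.29 over the 6 U74Av2 arrays and 497.61 to 498.38 over the 5 U74Bv2 arrays, and no scaling was added. Probe sets were named through the platform annotation, updated by Entrez identifier with a RefSeq table of GRCm38.p6, which matched all 40 and 9 Hox members. Members and gene lists were chosen with earlier results of these data known.

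Signals were taken as log2 of the signal plus 0.1 of the mean trimmed mean (50.027 on U74Av2, 49.814 on U74Bv2). Controls and probe sets with a mean in the lowest 40% were dropped, leaving 7453 and 7446. limma 3.58.1 in R 4.3.3 fitted all of these with an intensity trend, with 3 genotypes for pairwise comparisons and with the knockout against the pooled wild-type and heterozygote arrays. Tests were two-sided and Benjamini-Hochberg adjusted within each comparison, with calls at an adjusted p under 0.05. The lone wild-type U74Bv2 array was taken to vary like the other groups. The number of arrays limits the precision. The fit was also run on simulated data with independent noise for each array. That run does not cover the shared deviation of U74Av2 arrays of the same number. Python 3.11.15 and matplotlib 3.10.9 drew the plots.

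Given by array were all Hoxd1 probe sets, those called with or without a replicate block, and, of those tested on each array type, the 5 with the largest knockout minus wild-type difference and the 3 brightest. Alternatives were a replicate block, a pseudocount of 0.02 of the trimmed mean, no filter, no intensity trend, quantile normalization and each array left out.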

Additional observations from a re-analysis of the deposited data

How the results depend on the processing

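Hoxd1 was lower in the knockout under every alternative run. Its call against all other arrays on 98819_at held with a pseudocount of 0.02 of the trimmed mean, no filter, no intensity trend, quantile normalization and the replicate block, at -2.96 to -2.47 and adjusted p between 0.00149 and 0.0394. With each array left out in turn it ranged from -3.20 to -1.73, with adjusted p between 0.00279 and 0.0733. That of 98820_g_at ranged from -2.39 to -1.77 (0.0489 to 0.511). Against the wild type the ranges were -3.24 to -1.77 (0.0350 to 0.581) and -2.87 to -1.82, and against the heterozygote -3.17 to -1.70 (0.0467 to 0.743) and -2.40 to -1.22. The heterozygote minus wild-type difference ranged from -0.17 to 0.03 on 98819_at and from -1.13 to 0.06 on 98820_g_at. With an array left out, the number of Hox probe sets called ranged from 0 to 1 in each knockout comparison on U74Av2, and it was 0 on U74Bv2.

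Arrays of the same number deviated together on U74Av2, with correlations of 0.62, 0.53 and 0.57 between genotypes over 7453 probe sets, and hardly on U74Bv2 (0.1). The labels do not say what a number shares, and with 2 numbers the pairing is not established. With the replicate number as a block, 2 Hox probe sets, those of Hoxd1, were called in each knockout comparison on U74Av2, beside 1.74%, 1.73% and 3.57% of all probe sets. Then 98819_at was at -2.50 (adjusted p = 0.0151) against the wild type and -2.43 (0.0160) against the heterozygote. For 98820_g_at the block gave -2.34 (0.00253), -1.81 (0.00856) and -2.08 (0.00202, against all other arrays). Its heterozygote minus wild-type difference with the block was -0.53, with a 95% interval of -1.01 to -0.05. That difference was not called (limma adjusted p = 0.986). Over all probe sets, the block took the calls against the wild type, the heterozygote and all other arrays from 19 to 130, 14 to 129 and 65 to 266 on U74Av2, and from 104 to 216, 127 to 317 and 218 to 231 on U74Bv2. In heterozygote minus wild-type on U74Bv2 it took them from 0 to 7. Among listed genes, Stra6, Crabp2, Pbx3, Ezh2, Men1, Lhx1, Prph and Tlx3 were called against all other arrays with the block and not without it.

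Leaving out an array turned the sign of small knockout minus wild-type differences. Hoxa6 102580_r_at ranged from -0.62 to 0.03 (0.00 without wild-type array 1), Hoxa11os from -0.70 to 0.16 (0.09 without knockout array 1), and Hoxb8 96418_r_at from -0.17 to 0.40 (-0.16 without wild-type array 2). Hoxa4 97747_r_at ranged from -0.81 to 0.74 (0.59 without wild-type array 1) and Hoxc10 from -0.48 to 0.02. Over all probe sets, leaving out an array gave 0 to 15, 0 to 11 and 17 to 42 calls in the 3 knockout comparisons on U74Av2, and 115 to 178, 130 to 188 and 112 to 202 on U74Bv2. Without a filter, U74Bv2 had 21 and 54 calls against the wild type and the heterozygote, and with no intensity trend 40 and 81. The causes were not tested.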

Other observations

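Many probe sets differed between the arrays of number 1 and number 2 on U74Av2, and Hox probe sets did so about as often as all. With the number as a term beside genotype, a comparison chosen after seeing the data, number 1 was higher than number 2 on U74Av2 for Hoxa4 97747_r_at by 1.31 ± 0.12 (SE, limma adjusted p = 0.00417), for Hoxa6 102580_r_at by 0.62 ± 0.14 (0.0225) and for Hoxb8 96418_r_at by 0.55 ± 0.11 (0.0135) on the log2 scale. Hoxd1 98820_g_at was lower in number 1 (-0.95 ± 0.17, adjusted p = 0.0107). These were 4 of the 14 tested Hox probe sets, and 24.4% of the 7453 probe sets tested were called in this comparison, 10.9% higher and 13.5% lower in number 1. All 4 were of relaxed design, as were 5 of the 14. This trait was seen after the calls and was not compared with the whole array. Without a filter 3 of the 40 Hox probe sets were called, beside 9.19% of all. On U74Bv2, limma called 0 of the 3 Hox probe sets tested by number, with 0.201% of all called.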
